A study of Mus musculus with 4 samples.

Results

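A set of 10 genes that mark nitrogen handling along the liver lobule was followed in cultured mouse hepatocytes with and without dynamin-related protein 1 (Drp1), the mitochondrial fission protein encoded by Dnm1l. The members were matched by gene name, and their list was set with earlier results of these data known. It held 6 periportal genes (Cps1, Ass1, Arg1, Gls2, Hal and Sds) and 4 pericentral genes (Glul, Oat, Rhbg and Axin2), 10 genes in all. The series had 20615 genes with a probe well above background on at least 1 array. All 10 had probes on the array, 16 in number. Of the 10, 8 were well above background on all 4 arrays, as were 16611 genes of the series, and Sds and Axin2 on none.

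Hepatocytes were compared between Drp1LiKO mice, which carry an Alb-Cre transgene and floxed Drp1 alleles so that the gene is deleted in cells that use the albumin promoter, and control littermates with floxed alleles, whose samples are labelled wild-type. All mice were C57BL/6 and male, and the labels used here give no age. Cells of each genotype were left untreated or exposed to 200 μM of the saturated fatty acid palmitate, and the labels place the harvest of the cells 24 h after seeding, with no separate time for the palmitate exposure. Each of the 4 groups had 1 array, so no value has a replicate and no spread between animals or cultures can be given. The cells had been dispersed with collagenase, pelleted at low speed and plated in a medium with insulin, glutamine and serum. The lobular zones were thus not kept apart, and the share of cells from each zone in a sample was not measured. By its label, the untreated control array was also used in a different series.

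In the intact lobule, periportal hepatocytes take up ammonia and amino acids from portal blood and convert their nitrogen to urea, whereas a thin layer of pericentral hepatocytes takes up the remaining ammonium and fixes it in glutamine. Carbamoyl phosphate synthetase (Cps1), argininosuccinate synthetase (Ass1) and arginase (Arg1) are enzymes of the cycle, Gls2 releases ammonia from glutamine, and Hal and Sds start the breakdown of histidine and serine. On the pericentral side, Glul is glutamine synthetase, Oat is ornithine aminotransferase, Rhbg is an ammonium transporter, and Axin2 is a feedback target of Wnt and beta-catenin signalling, which maintains the pericentral programme.

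The array read each gene through probes of 60 bases, with positions on mm9. The probes of Arg1 and Cps1 are printed here because each was the only probe of its gene and both differences below rest on them. No letters are capitalised.
Arg1 probe, chr10:24636194-24636253: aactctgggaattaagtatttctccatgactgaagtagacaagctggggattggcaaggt
Cps1 probe, chr1:67276029-67276088: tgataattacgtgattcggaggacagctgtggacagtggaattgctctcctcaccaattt
Of the 10 members, 5 had an entry in the RefSeq promoter table (GRCm38.p6). The 250 bases before the transcription start are printed for the members among them with the largest genotype differences: Ass1 and Hal, which were higher in Drp1LiKO cells, and Oat, which was lower. Capitals mark matches, on either strand, to the core promoter box TATAAA, the C/EBP-type motif TTNNGNAA, the TCF-type motif CTTTGAT, the glucocorticoid receptor hexamer TGTTCT, the cyclic AMP response element TGACGTCA and the box CCAAT.
Ass1 promoter, chr2:31470020-31470269 (+ strand): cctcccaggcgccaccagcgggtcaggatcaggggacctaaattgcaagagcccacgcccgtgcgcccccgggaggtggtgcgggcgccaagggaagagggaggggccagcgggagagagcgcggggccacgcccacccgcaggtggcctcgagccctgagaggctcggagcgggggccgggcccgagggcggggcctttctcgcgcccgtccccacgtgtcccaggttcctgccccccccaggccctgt
Hal promoter, chr10:93488518-93488767 (+ strand): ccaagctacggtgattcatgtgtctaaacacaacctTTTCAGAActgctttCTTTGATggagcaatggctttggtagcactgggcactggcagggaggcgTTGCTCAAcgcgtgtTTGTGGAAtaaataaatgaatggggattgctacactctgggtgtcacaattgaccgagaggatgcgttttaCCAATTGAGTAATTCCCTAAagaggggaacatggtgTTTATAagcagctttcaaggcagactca
Oat promoter, chr7:132576399-132576648 (- strand): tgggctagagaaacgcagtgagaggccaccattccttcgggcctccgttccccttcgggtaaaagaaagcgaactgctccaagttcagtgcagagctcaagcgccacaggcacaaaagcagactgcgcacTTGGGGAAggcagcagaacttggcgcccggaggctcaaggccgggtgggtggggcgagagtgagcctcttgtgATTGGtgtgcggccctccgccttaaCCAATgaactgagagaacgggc
The Hal window held 5 C/EBP-type matches, 1 of which shares a base with the 1 CCAAT match and is directly followed by another. It also held 1 TCF-type match, and 1 TATAAA match on the opposite strand, 28 to 23 bases before the start. The Oat window held 1 C/EBP-type match and 2 CCAAT matches, and the Ass1 window held none of the 6 motifs. The Glul window held 2 CCAAT matches and the Axin2 window 1 TGTTCT match. Over all 32851 promoters of the table, the same 250 bases held TTNNGNAA in 36.8%, CCAAT in 33.8%, TGTTCT in 16.1%, TATAAA in 12.4%, CTTTGAT in 3.21% and TGACGTCA in 1.55%. These matches describe the letters and are not binding sites.

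Values below are log2 signals relative to the 75th percentile of the array, so 0 is that percentile and a difference of 1 is 2-fold. A gene was counted as changed between 2 arrays at a difference of at least 1, with no test, because each group had 1 array. Repeat spots of a probe within an array had a median SD of 0.034 to 0.038 log2 units, which is spot noise alone. Between probes of the same gene, the median SD of the difference was 0.173 for genotype without palmitate and 0.118 with it. Levels of different genes were not compared, since each probe has its own brightness. The probe for Dnm1l read 1.35 lower in Drp1LiKO cells without palmitate and 1.42 lower with it, although where this probe lies relative to the deleted part was not given in the sources used here. The dimmer Dnm1l probe differed by -0.35 and 0.22, and was well above background on neither palmitate array. Gapdh differed by -0.08 and -0.11.

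Between the genotypes, 4 of the 5 measured periportal members (Cps1, Ass1, Arg1 and Hal) read higher on the Drp1LiKO array than on the control array both without and with palmitate, and Gls2 read close to the control. The pericentral members differed among themselves: Oat read lower in Drp1LiKO cells and Glul and Rhbg lay within 0.11 of the control. Without palmitate, Ass1, Arg1 and Hal were at least 2-fold higher and no member was 2-fold lower. Over all genes, 14.4% of 19875 were at least 2-fold apart in that comparison. Among the 17652 genes well above background on both arrays, which is the state of all 8 measured members, 4.46% were at least 2-fold higher, and 3.34% were at least 2-fold lower. With palmitate, Cps1, Arg1 and Hal were at least 2-fold higher and Oat at least 2-fold lower, where 11.5% of 18890 genes were 2-fold apart in either direction. Among the 16784 genes well above background on both palmitate arrays, 3.09% were at least 2-fold higher and 2.47% lower.

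**Figure D1:**
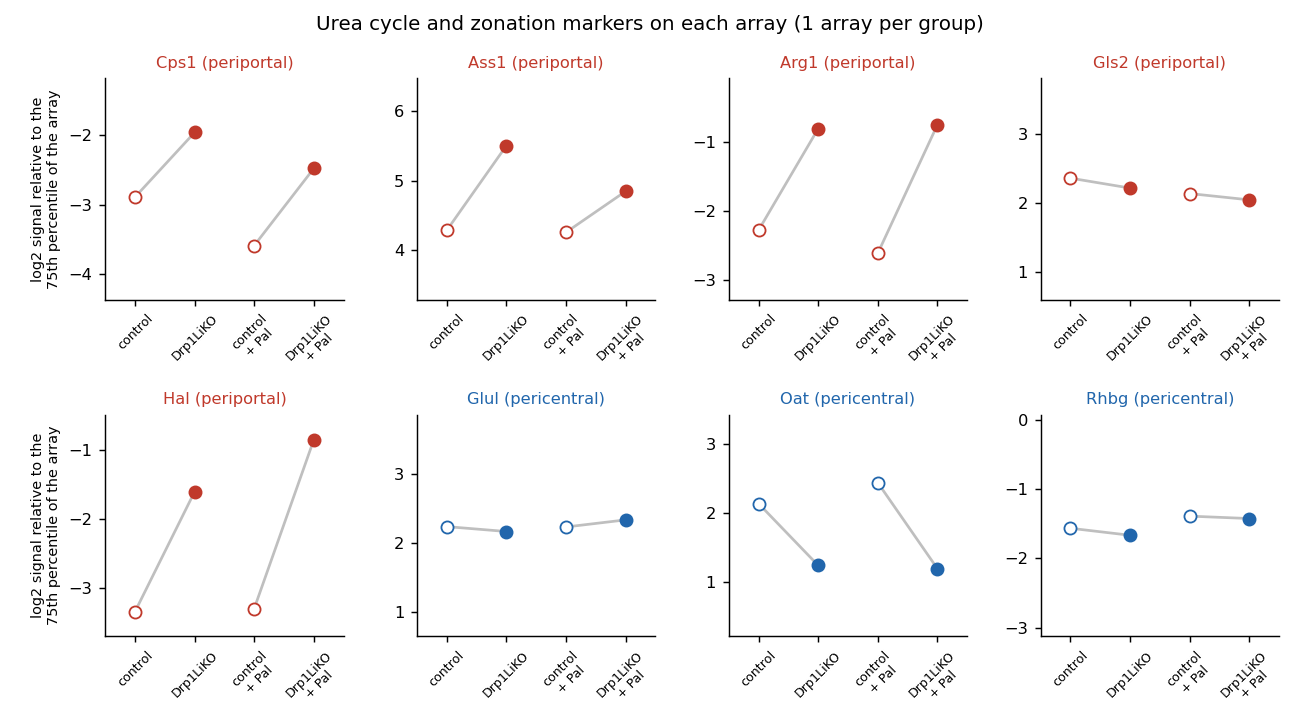
Log2 signal of the 8 measured members relative to the 75th percentile of each array, 1 point per array (open, control; filled, Drp1LiKO; Pal, palmitate; red, periportal; blue, pericentral), with a grey line joining the genotypes within a treatment and the same vertical span in every panel. Cps1, Ass1, Arg1 and Hal climb from control to Drp1LiKO in both treatments, Oat descends, and Gls2, Glul and Rhbg stay nearly level.

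Cps1, which makes carbamoyl phosphate in the mitochondrial matrix and so commits ammonia to the cycle, read -2.89 in control cells, -1.96 in Drp1LiKO cells, -3.59 in control cells with palmitate and -2.48 in Drp1LiKO cells with palmitate. Both Drp1LiKO arrays lay above both control arrays. The genotype difference was 0.94 (1.91-fold) without palmitate, just under the 2-fold line, and 1.12 (2.17-fold) with it. The single Cps1 probe was dim, with processed intensities of 65.4, 139.8, 35.1 and 84.2 in that order. When background was corrected by the normexp model with an offset of 50 instead, the difference was 0.511 without palmitate and 0.455 with it. Such an added offset pulls dim probes together.

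Ass1, which joins citrulline and aspartate in the cytosol, read 4.28 in control, 5.50 in Drp1LiKO, 4.25 in control with palmitate and 4.84 in Drp1LiKO with palmitate. Both control arrays were nearly alike and both Drp1LiKO arrays were higher. The difference was 1.23 (2.34-fold) without palmitate and 0.59 (1.51-fold) with it. No other measured member had a smaller genotype gap with palmitate than without it by this much, the change being -0.63. This change could not be tested with 1 array per group.

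Arg1, which releases urea from arginine and closes the cycle, read -2.28 in control, -0.81 in Drp1LiKO, -2.61 in control with palmitate and -0.75 in Drp1LiKO with palmitate. The Drp1LiKO arrays again lay above both controls, and differed from each other by 0.06. The genotype difference was 1.47 (2.77-fold) and 1.86 (3.63-fold). Under normexp it was 1.00 without palmitate and 1.18 with it. Arg1 is also made by some macrophages, whose markers are given further on.

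Hal, histidine ammonia-lyase, had the largest genotype difference of the measured members in both treatments, except that under normexp Ass1 at 1.22 and Arg1 at 1.00 exceeded it without palmitate. It read -3.34 in control, -1.60 in Drp1LiKO, -3.29 in control with palmitate and -0.85 in Drp1LiKO with palmitate, so both control arrays were low and both Drp1LiKO arrays higher. The difference was 1.74 (3.33-fold) without palmitate and 2.44 (5.44-fold) with it. Among the genes well above background on both arrays it ranked 259 of 17652 from the highest without palmitate and 70 of 16784 with it. The control arrays gave this probe intensities of only 47.9 and 43.2, and under normexp the difference was 0.926 without palmitate and 1.37 with it. A second Hal probe was not well above background on any array.

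Gls2, the liver-type glutaminase, read 2.35 in control, 2.21 in Drp1LiKO, 2.13 in control with palmitate and 2.04 in Drp1LiKO with palmitate. Its genotype difference was -0.14 and -0.09, and that of its second probe -0.08 and -0.32. Gls2 therefore stood apart from the other measured periportal members, each of which differed by more than 0.59 in both treatments with the processing reported here. Over the alternatives, their smallest difference was 0.434, for Ass1 with palmitate when each array was centred on its median. Gls2 differed there by -0.25. Sds, the serine dehydratase that yields pyruvate and ammonia, was not well above background on any array with either of its 2 probes, whose intensities lay between 3.91 and 8.77, so no difference is given for it.

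On the pericentral side, Oat, which converts ornithine and 2-oxoglutarate to glutamate and a proline precursor, read 2.14 in control, 1.24 in Drp1LiKO, 2.44 in control with palmitate and 1.20 in Drp1LiKO with palmitate. Both Drp1LiKO arrays lay below both controls. The difference was -0.90 without palmitate (1.86-fold lower) and -1.24 with it (2.37-fold lower). Oat has 1 probe on the array, with intensities between 1074 and 2303, far from background. It ranked 763 of 17652 from the lowest without palmitate and 233 of 16784 with it.

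Glul, glutamine synthetase, read 2.23 in control, 2.16 in Drp1LiKO, 2.23 in control with palmitate and 2.33 in Drp1LiKO with palmitate. The genotype difference was -0.07 and 0.10. Its other probes differed by 0.04 and 0.29, and by 0.41 and 0.40, so the probes did not share a direction in untreated cells, and the sign of the value also turned with the scaling. Rhbg, the ammonium transporter, read -1.56, -1.66, -1.39 and -1.42 in the same order, a genotype difference of -0.10 and -0.03. Axin2 was not well above background on any array with either of its 2 probes, whose intensities lay between 3.70 and 5.71. The pericentral description thus rests on 3 genes.

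**Figure D2:**
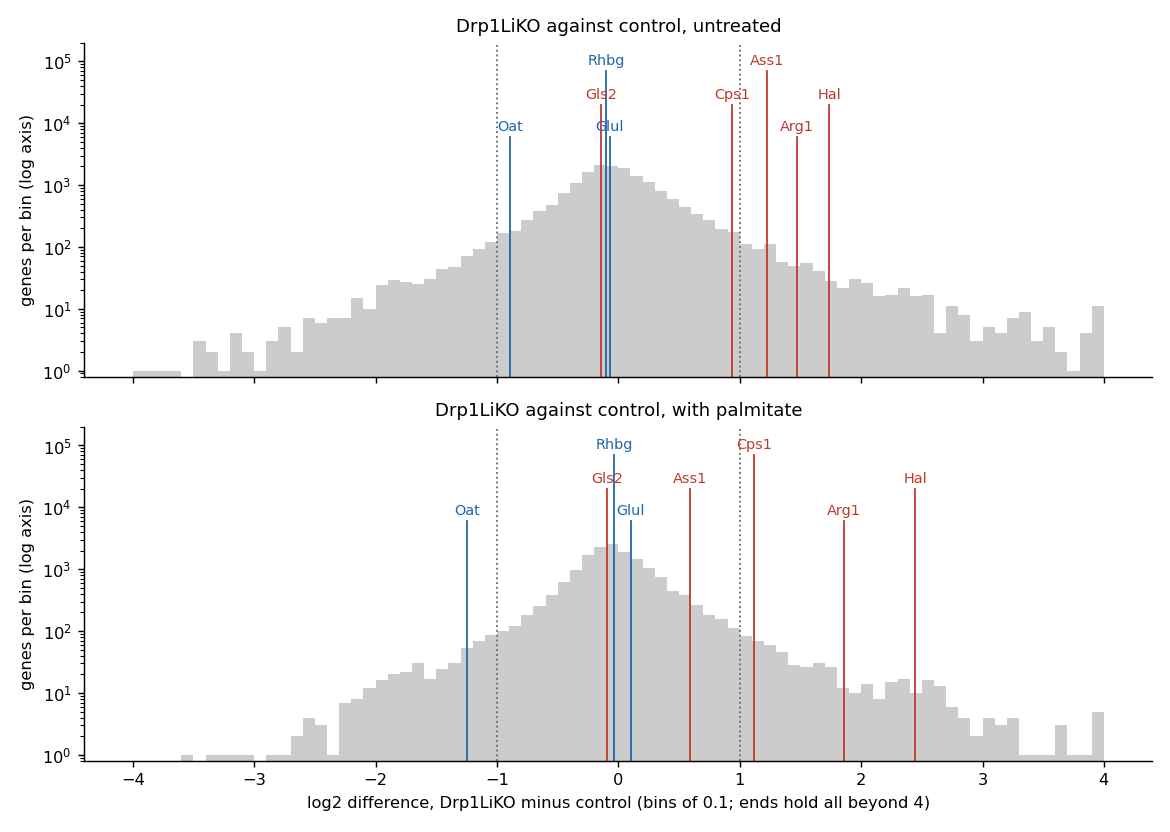
Number of genes (log axis) by log2 difference, Drp1LiKO minus control, over genes well above background on both arrays of the comparison, in bins of 0.1, with the 8 measured members as labelled lines (red, periportal; blue, pericentral; their heights carry no value) and dotted lines at 2-fold. Hal and Arg1 lie in the right tail in both panels, Oat in the left, and Gls2, Glul and Rhbg under the peak.

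As a group, the 5 measured periportal members had a median genotype difference of 1.23 without palmitate and 1.12 with it, while the 3 measured pericentral members had medians of -0.10 and -0.03. The median over all genes was -0.02 and -0.03. The mean of the periportal members was higher in Drp1LiKO cells by 1.05 without palmitate and 1.18 with it, whereas that of the pericentral members differed by -0.36 and -0.39, which came mainly from Oat. The gap between the group means therefore moved towards the periportal side by 1.40 and 1.58. These means were taken with the processing reported here alone. Under normexp, the differences of the dim probes of Cps1, Arg1 and Hal were smaller in both treatments, as given above. No test was run over the members, since they were chosen with results of these data known. The untreated and the palmitate comparison share no array, but the labels do not say whether the cells came from separate animals.

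A single model over the 4 arrays with a genotype and a palmitate term left 1 residual degree of freedom. That residual also holds any change of the genotype difference with palmitate. With 1 array per group, the SE and p below therefore do not measure the spread between animals or cultures. By limma with Benjamini-Hochberg adjustment it called 0% of 20615 genes for genotype, where 5363 had p under 0.05 before adjustment and the lowest adjusted p was 0.119. The genotype estimates were 2.09 ± 0.25 (SE) for Hal, 1.66 ± 0.15 for Arg1, 1.03 ± 0.09 for Cps1, 0.91 ± 0.23 for Ass1 and -1.07 ± 0.14 for Oat. Their limma adjusted p were 0.128, 0.121, 0.121, 0.191 and 0.133 in that order. Gls2, Rhbg and Glul had estimates of -0.12, -0.07 and 0.02 with limma adjusted p of 0.390, 0.573 and 0.915. The calls differed between settings. With an intensity trend in limma, 26.0% of genes were called, and these 5 members were among them: adjusted p was 0.000842 for Arg1, 0.00138 for Hal, 0.00152 for Oat, 0.00727 for Ass1 and 0.00884 for Cps1. With only probes well above background on all 4 arrays 15.6% were called, Arg1, Cps1, Hal and Oat included, and under normexp 6.74%, Arg1, Hal and Oat included. Over all 8 alternatives limma's adjusted p ran from 0.000842 to 0.155 for Arg1, 0.00138 to 0.164 for Hal, 0.00152 to 0.180 for Oat, 0.00727 to 0.210 for Ass1 and 0.00884 to 0.163 for Cps1. Gls2, Glul and Rhbg were called under none of them.

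Palmitate left every measured member under 2-fold in both genotypes, where 5.70% of 18772 genes in control cells and 7.04% of 19747 in Drp1LiKO cells were 2-fold apart. Among genes well above background on both arrays of the comparison, as these members were, the shares were 1.11% and 2.42%. In control cells, Cps1 read 0.70 lower with palmitate, Arg1 0.33 lower and Gls2 0.22 lower, and Oat read 0.30 higher. Under normexp, Cps1 and Arg1 differed there by only -0.23 and -0.10. In Drp1LiKO cells, Cps1 read 0.52 lower and Ass1 0.66 lower, while Hal read 0.75 higher. Cps1 was thus lower with palmitate in both genotypes, by 0.28 in Drp1LiKO cells under normexp. Ass1 and Hal differed with palmitate by only -0.03 and 0.05 in control cells, and the difference between genotypes was not tested. Periportal medians were -0.22 in control and -0.17 in Drp1LiKO cells, and pericentral medians 0.18 and 0.17, against 0.01 and 0.00 over all genes. These comparisons share their arrays with the genotype comparisons. The palmitate arrays were on another slide than the untreated arrays, so palmitate and slide cannot be told apart, whereas each slide held both genotypes. By limma, palmitate called 0% of genes, where 1995 had p under 0.05 before adjustment and 186 (0.902%) were called with the intensity trend, no member among them.

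**Figure D3:**
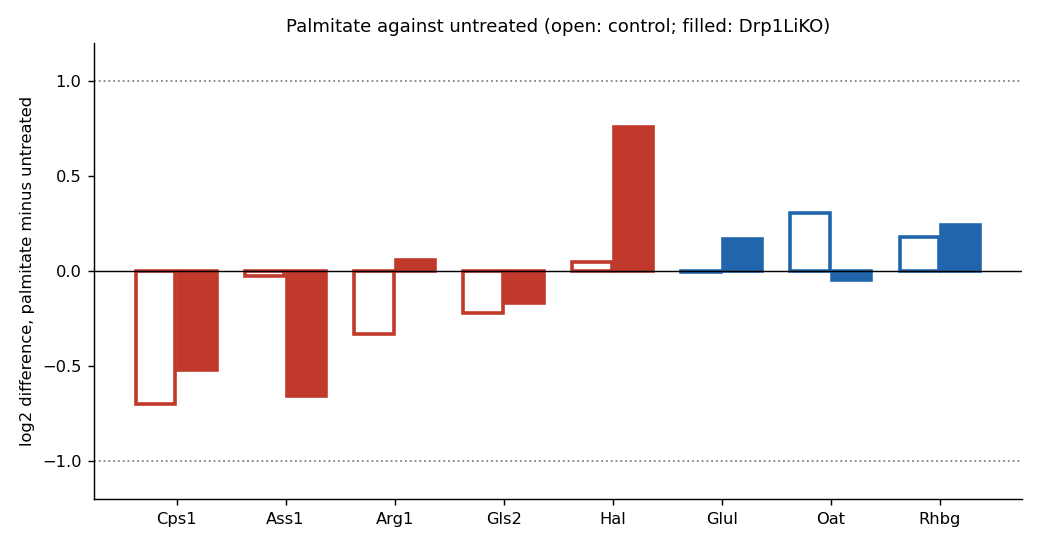
Log2 difference, palmitate minus untreated, for the 8 measured members in control cells (open bars) and Drp1LiKO cells (filled bars), 1 array against 1 array, with dotted lines at 2-fold (red, periportal; blue, pericentral). All bars stay inside the 2-fold lines, with Hal in Drp1LiKO cells the highest at 0.75 and Cps1 in control cells the lowest at -0.70, although under normexp Ass1 in Drp1LiKO cells was the lowest at -0.67.

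The other enzymes and carriers of the urea cycle were under 2-fold between genotypes for 6 of 6 measured genes, as were most genes of the array by the shares of 14.4% and 11.5% given above, with medians of 0.09 without palmitate and 0.27 with it. Nags, which makes the activator that Cps1 needs, had the largest difference of the 6: it read -0.09 in control, 0.72 in Drp1LiKO, -0.33 in control with palmitate and 0.58 in Drp1LiKO with palmitate, a difference of 0.81 and 0.90. Otc, ornithine transcarbamylase, differed by 0.45 and 0.42, with both Drp1LiKO arrays above both controls. Asl, argininosuccinate lyase, differed by 0.06 and 0.05 with its brighter probe and by 0.53 and 0.07 with its second. The mitochondrial ornithine carrier Slc25a15 differed by 0.11 and 0.11. The aspartate and glutamate carrier Slc25a13 differed by -0.13 and 0.00, with 0.20 and 0.05 for its second probe, and the arginine transporter Slc7a2 by -0.09 and 0.47. Arg2, Slc25a2 and Car5a stayed near background on all arrays.

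Of the other periportal genes, 4 of 19 measured were at least 2-fold higher in Drp1LiKO cells without palmitate and 9 of 19 with it, and 0 were 2-fold lower in either, with medians of 0.53 and 0.64. The count with palmitate includes Pck1, well above background on the Drp1LiKO array with palmitate alone. Of all genes well above background on at least 1 array of the comparison, 8.84% were at least 2-fold higher and 5.58% lower without palmitate, and 7.26% and 4.26% with it. Cyp2f2, a periportal cytochrome P450, read 4.29, 5.91, 4.15 and 5.84 in control, Drp1LiKO, control with palmitate and Drp1LiKO with palmitate, a difference of 1.62 and 1.69. Apoa4, an apolipoprotein, differed by 1.49 and 1.36, Tat, tyrosine aminotransferase, by 1.50 and 1.22, and the lipid droplet protein Hsd17b13 by 0.98 and 1.18.

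Of the other pericentral genes, in untreated cells 2 of 21 measured were at least 2-fold higher and 2 of 21 were lower, and in palmitate-treated cells 2 of 21 were higher and 1 of 21 was lower, with medians of 0.04 and 0.05, so the counts lay near those shares. Avpr1a, the vasopressin receptor of hepatocytes, had the largest difference: it read 1.35 in control, -2.02 in Drp1LiKO, 1.88 in control with palmitate and -1.27 in Drp1LiKO with palmitate. Both Drp1LiKO arrays were far below both controls, by 3.37 and 3.15 in the matched comparisons. The transcription factor Tbx3 differed by -1.15 and -0.84, and its second probe by -0.69 and -0.73. In the other direction, the nuclear receptor Nr1i3 differed by 1.72 and 1.27, with a second probe not well above background, and the carboxylesterase Ces1d by 1.25 and 1.40. Cyp2e1, a cytochrome P450 named after its values were seen because it is a common pericentral marker, differed by -0.66 and -0.72. Cyp1a2, another cytochrome P450 of this list, went the other way, by 0.82 and 0.37. Of the 21 genes, 11 read above the control and 10 below in each treatment. The pericentral genes thus had no shared direction.

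**Figure D4:**
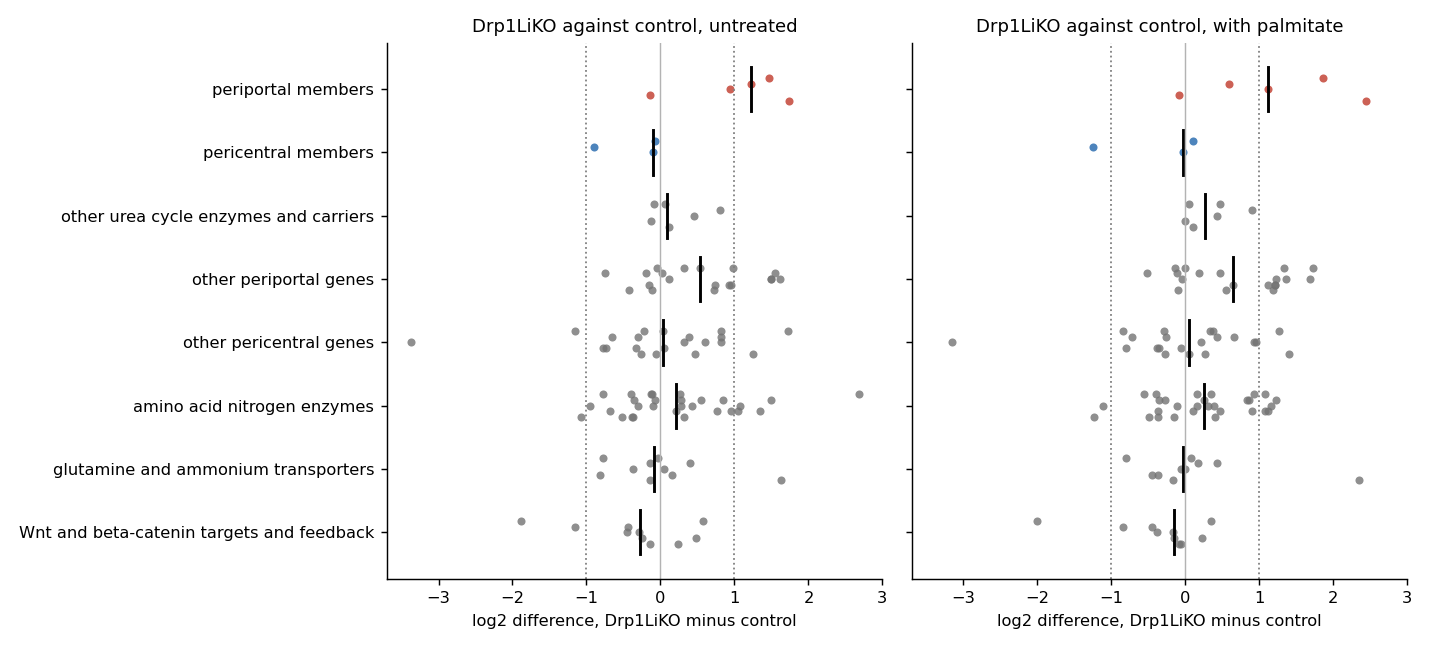
Log2 difference, Drp1LiKO minus control, for every gene of 8 lists well above background on at least 1 array of the comparison, 1 point per gene with a black line at the list's median and dotted lines at 2-fold. The periportal members (red) have the medians furthest to the right, 1.23 and 1.12, followed by the other periportal genes at 0.53 and 0.64, and the point far to the left is Avpr1a.

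Among the enzymes of amino acid nitrogen, some of which are also in the periportal list, 5 of 29 were at least 2-fold higher and 1 of 29 was lower without palmitate, and with it 5 of 29 were higher and 2 of 29 lower. Hgd, counted as higher in both treatments, was well above background on the Drp1LiKO arrays alone. Tat is given above. Tdo2, which opens the tryptophan ring, differed by 1.07 and 1.16. Glud1, glutamate dehydrogenase, differed by -1.07 and -1.24 with its brightest probe, but its other probes gave -0.53 and -0.94, and 0.38 and 0.28, so its direction depended on the probe. The shares over all genes given with the periportal genes apply to these lists too. Of the glutamine and ammonium transporters, 1 of 10 was at least 2-fold higher in each treatment and none lower. That gene was Slc7a8, well above background on the Drp1LiKO arrays alone. Of the Wnt and beta-catenin targets and feedback genes, 0 of 10 were 2-fold higher, and 2 of 10 lower without palmitate and 1 of 10 with it, Tbx3 of the pericentral list being 1 of those lower without palmitate. Of the Wnt ligands, receptors and core genes, 1 of 19 was higher and 1 of 19 lower without palmitate, and 1 of 16 was higher with it. The higher gene was Rspo3, well above background on the Drp1LiKO arrays alone, and the lower was Wnt2, so only on the untreated control array.

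The genes whose 4 centred values lay closest to those of Hal, among 16610 other genes well above background on all 4 arrays, were Cyth4, Foxf1 and Prelp, at Euclidean distances of 0.219, 0.228 and 0.244 log2 units. Cyth4 differed by 2.01 and 2.54 between genotypes, Foxf1 by 1.94 and 2.39, and Prelp by 1.91 and 2.17. Those closest to Arg1 were Esm1, Gm11783 and Cyp2f2, at 0.117, 0.157 and 0.161. Esm1 differed by 1.54 and 1.72, and Gm11783 by 1.55 and 1.67. With 4 arrays, the likeness is a description of those arrays.

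Markers of other liver cells moved with the genotype. Of the macrophage markers, 13 of 16 were at least 2-fold higher in Drp1LiKO cells without palmitate and 11 of 14 with it, and 0 were lower. Over all genes so counted, 8.84% were at least 2-fold higher without palmitate and 7.26% with it. A marker well above background on the Drp1LiKO array alone was counted too, so its difference starts from a control value near background. Macrophage markers well above background were 11 on the control array and 16 on the Drp1LiKO array, and 8 and 14 with palmitate. Their summed level, in units of the 75th percentile, was 31.5 and 38.6 on the control arrays and 61.4 and 59.5 on the Drp1LiKO arrays. Such a sum weighs bright probes most. The brightest on the control arrays were Cd14, which differed by 0.22 and 0.05 between genotypes, and Itgam, by 0.02 and -0.36. The brightest on the Drp1LiKO arrays was Cd68, which differed by 2.01 and 1.69. Of the endothelial markers, 9 of 11 and 6 of 10 were higher and 0 and 1 lower, with summed levels of 1.99 and 1.93 in controls and 6.05 and 4.21 in Drp1LiKO. Of the stellate cell markers, 6 of 9 and 5 of 8 were higher and 0 lower, with a median difference of 3.02 and 1.91. Stellate cell markers well above background were 6 on the control array and 9 on the Drp1LiKO array, and 5 and 8 with palmitate. These medians thus rest in part on control values near background. The summed level of the stellate cell markers lay between 171.8 and 178.9 and was carried by the bright probes of Vim and Acta2. These differed by -0.16 and 0.22 without palmitate and by -0.22 and 0.02 with it. A dimmer Acta2 probe, well above background on all 4 arrays, differed by 2.18 without palmitate and 2.07 with it, so the size of the Acta2 difference depended on the probe. Hepatocyte markers, which include Tat, were higher for 2 of 11 in each treatment and lower for 0, with summed levels from 1717 to 1788, and all 11 measured were well above background on every array. Cholangiocyte markers were higher for 1 of 4 and 0 of 4, neutrophil markers for 1 of 1 and 2 of 2, and lymphocyte markers for 1 of 2 and 2 of 3, with 0 lower in each. Of 7 reference genes, 0 were 2-fold apart. What part the other cells had in the values of Arg1, Hal and the other members was not tested. Fewer cells of a type and less RNA per cell cannot be told apart in these samples.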

How the data were processed

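RNA of 4 samples was labelled with Cy3 and hybridised to a mouse whole-genome Agilent array with 62976 spots, 1 sample per group. The authors deposited scanner tables of intensity values on a linear scale, with background subtracted and trends corrected within each array by Feature Extraction (10.7.1.1 in the file header, 9.5.1.1 in the submitters' processing notes) and no scaling between arrays. They also deposited a table of linear processed intensity values, whose 4 columns hold the same sorted values, median 4.18 on the log2 scale; it was an alternative. The flags of the scanner software (background, saturation and outlier) were deposited as other columns. The labels and the methods name different RNA kits.

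Control spots and outlier spots were left out, repeat spots averaged, and log2 of the processed signal taken minus the 75th percentile of each array (intensities of 485, 542, 424 and 468). No spot was saturated (0 on each array), and 44.7% to 51.1% of probes were well above background. The scaling hides a change shared by most transcripts. A gene was read by its brightest probe well above background on at least 1 array. Groups came from the labels. An additive model was fitted by limma 3.58.1 in R 4.3.3 and tested on simulated data. Named genes were all members, every measured urea cycle gene and, of other lists, up to 4 genes well above background on all arrays and 2-fold apart between genotypes, with Dnm1l and Gapdh as checks; 1 gene so named is not reported here. The members and lists were chosen with earlier results of these data known. Alternatives were normexp (offset 50), the deposited table, other centrings, the mean of probes, other filters and an intensity trend.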

Additional observations from a re-analysis of the deposited data

Results flagged for a closer look

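Ftcd, formimidoyltransferase cyclodeaminase, which acts in the histidine pathway downstream of Hal, was lower in Drp1LiKO cells than in control cells without palmitate, by 0.78, and higher with it, by 0.93. It was looked at because the genotype difference ran in opposite directions in the 2 treatments, by 1.71 on the log2 scale in all. Its values were 0.85 in control, 0.07 in Drp1LiKO, 0.62 in control with palmitate and 1.56 in Drp1LiKO with palmitate, from 1 probe. The difference was not tested, since each group had 1 array. Of 109 member, pathway and zonation genes well above background on all 4 arrays, it was the only one with opposite differences of at least 0.5 each.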

How the results depend on the processing

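Filters on dim probes and a floor could not move the 8 measured members, which were well above background throughout. Of the 136 member differences that an alternative did alter, 132 stayed on the same side of the 2-fold line, and no difference of 2-fold or more turned its sign. Smaller differences of Glul between genotypes did turn sign, as did those of Hal and Glul under palmitate in control cells. Under normexp, Hal without palmitate was 0.926 and Cps1 with palmitate 0.455. Centring each array on its median moved the median genotype estimate of all genes from -0.02 to -0.19, and Cps1 with palmitate was then 0.957 and Oat without palmitate -1.08. Of 50 summary values that an alternative altered, 37 stayed within the spread between probes of a gene or within 1.5 times a count. The periportal median was 0.926 without palmitate, 0.602 with it and -0.10 for palmitate in control cells under normexp, and 1.04 and 0.957 between genotypes under median centring. The pericentral median was then -0.28 and -0.19. With no filter on dim probes, which adds Sds and Axin2, it was 0.856 for periportal and -0.18 for pericentral members between genotypes with palmitate, and -0.35 for periportal members under palmitate in Drp1LiKO cells. Members called for genotype by limma, 0 in the model reported, were 3 under normexp, 4 with probes above background on all 4 arrays and 5 with an intensity trend. The cause of these shifts was not tested. No paired analysis was possible because each group has 1 array and the labels carry no replicate numbers to pair, beyond the additive model, which already compares the genotypes within each slide. Dim signals limit Cps1, Arg1 and Hal, and the number of arrays limits every value.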

Other observations

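The histidine pathway was looked at after the values of Hal were seen. Uroc1, the urocanase that follows Hal, read -0.28 in control, 0.67 in Drp1LiKO, -0.51 in control with palmitate and 0.60 in Drp1LiKO with palmitate, so both Drp1LiKO arrays lay above both controls. Its genotype difference was 0.95 and 1.11, and a second, dimmer probe was well above background on 2 arrays. Amdhd1, the next enzyme, differed by 0.76 and 0.47, but its second probe differed by 0.08 and -0.13. Hal and Uroc1 were thus higher in Drp1LiKO cells in both treatments, the direction of Amdhd1 depended on the probe with palmitate, and Ftcd, given above, differed in direction between treatments.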
